A study of Mus musculus with 12 samples.

Results

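The 10 genes described here, Foxj1, Ak7, Hydin, Tmem212, Rsph1, Dnah6, Dnah9, Dnah11, Ccdc153 and Spag16, are known from motile cilia, which in the brain are carried above all by ependymal cells, the lining of the ventricles. They were taken by symbol with no filter on their values, but the list was made with earlier results of these data known. They are 10 of the 44760 genes that have the same name in both deposited tables, 1 table for each age. RNA was sequenced from the hippocampus of male mice in 4 groups of 3 libraries, formed by age and infusion. The groups were nicotine at 18 months, saline at 18 months, nicotine at 7 months and saline at 7 months. The mice of all 12 libraries were APPswe/PS1dE9 transgenics on a C57BL/6 background (N9B6), which express amyloid precursor protein with the Swedish mutation together with presenilin 1 lacking exon 9. No library came from a mouse without the transgenes. An osmotic pump under the skin delivered nicotine hydrogen tartrate, at 48 mg/kg/h as labelled, or saline for 14 days. The labels do not say that the 3 libraries of a group are separate mice, and p-values therefore measure the spread between these libraries, which may be technical. The design asks what nicotine changed at an early and a late stage of the disease model.

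A motile cilium is built on a ring of microtubule doublets around a central pair. Dynein motors bound to the doublets slide them against each other, radial spokes and the central pair apparatus time that sliding, and the beat of many such cilia moves cerebrospinal fluid over the ventricle wall. In cells with many motile cilia, transcription factors of the forkhead and RFX families switch on the genes for these parts. Foxj1 is the forkhead factor of that programme. Dnah6, Dnah9 and Dnah11 encode axonemal dynein heavy chains, the motor subunits, of which Dnah9 and Dnah11 belong to outer dynein arms and Dnah6 to inner arms. Hydin and Spag16 encode proteins of the central apparatus, Rsph1 a protein of the radial spoke head, and Ak7 an adenylate kinase of cilia. Tmem212 and Ccdc153 are used as markers of ependymal cells. The members fall into 4 genes with long transcripts (Hydin, 15783 nt; Dnah11, 14072 nt; Dnah9, 13798 nt; Dnah6, 12652 nt) and 6 with short ones (Spag16, 3559 nt; Ak7, 3099 nt; Foxj1, 2623 nt; Rsph1, 1191 nt; Ccdc153, 1087 nt; Tmem212, 716 nt).

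Promoters are shown for the 4 members that passed the test between ages in nicotine mice, since 3 of them rose and 1 fell. Windows of 300 bases, 250 before and 50 after the gene start, came from RefSeq on GRCm38.p6 and were found for 8 of the 10 members, Foxj1 and Rsph1 being the others. Capitals mark matches, on either strand, to GTTGCC, a single site for RFX factors, or to a pair of such sites, GTTGC and GCAAC with 3 or 4 bases between them.
Hydin (chr8:110266727-110267026, plus strand): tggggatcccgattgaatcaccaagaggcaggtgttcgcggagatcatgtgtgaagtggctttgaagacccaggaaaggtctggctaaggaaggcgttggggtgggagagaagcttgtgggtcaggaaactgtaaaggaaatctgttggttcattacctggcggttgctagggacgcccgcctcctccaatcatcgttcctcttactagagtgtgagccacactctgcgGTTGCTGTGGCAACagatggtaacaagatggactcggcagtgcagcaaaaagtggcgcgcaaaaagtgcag
Dnah6 (chr6:73221582-73221881, minus strand): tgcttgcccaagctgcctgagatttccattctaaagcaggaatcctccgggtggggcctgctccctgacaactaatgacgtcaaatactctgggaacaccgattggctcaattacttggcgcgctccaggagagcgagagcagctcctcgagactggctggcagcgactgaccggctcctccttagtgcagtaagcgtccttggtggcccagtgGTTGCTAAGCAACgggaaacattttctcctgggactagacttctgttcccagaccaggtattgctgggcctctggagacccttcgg
Dnah9 (chr11:66168502-66168801, minus strand): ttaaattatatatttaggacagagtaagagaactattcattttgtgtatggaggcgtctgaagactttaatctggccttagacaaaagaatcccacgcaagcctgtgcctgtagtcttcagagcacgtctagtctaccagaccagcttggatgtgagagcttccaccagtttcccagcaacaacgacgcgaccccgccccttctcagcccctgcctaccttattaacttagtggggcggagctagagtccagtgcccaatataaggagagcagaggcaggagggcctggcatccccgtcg
Ccdc153 (chr9:44240427-44240726, plus strand): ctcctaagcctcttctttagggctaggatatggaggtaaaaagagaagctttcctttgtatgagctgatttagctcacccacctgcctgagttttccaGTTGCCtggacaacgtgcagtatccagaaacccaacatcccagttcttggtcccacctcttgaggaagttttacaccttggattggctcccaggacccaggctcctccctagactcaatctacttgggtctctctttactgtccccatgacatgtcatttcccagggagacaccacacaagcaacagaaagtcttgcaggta
The single site stood in 3 of the 8 windows, those of Hydin, Ccdc153 and Spag16, and in 12.5% of all 32851 windows of the same length. The paired arrangement, looked for after the windows had been read, stood 21 bases upstream of the start in Hydin and 36 bases upstream in Dnah6, and in 0.4% of all windows; in Hydin it overlaps the single site. The forkhead motif GTAAACA was found in 1 of the 8 windows, that of Ak7, and in 3.6% of all windows. Windows with either kind of RFX match belonged to 2 long members that rose, to Ccdc153, which fell, and to Spag16, which was not called. The Dnah9 window held neither kind of match. A match in a window is a description of its letters and no evidence of binding.

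Libraries of 18-month mice held 21260068 to 23715015 counts each, and those of 7-month mice 25071195 to 29245972. Levels are in CPM, counts scaled to a common library size, on library sizes scaled by the trimmed mean of M-values (TMM), and fold changes are on the log2 scale with a standard error (SE). Each age has its own table, so age and any difference in library preparation or sequencing cannot be told apart. Transcripts over 5000 nt took 32.4% to 33.1% of the counts of the 18-month libraries. In the 7-month libraries they took 20.7% to 21.5%, except 29.3% in 7-month saline library 2. Transthyretin (Ttr), the leading product of the choroid plexus, which lies beside the ependyma in the ventricles, exceeded 1000 CPM in 3 libraries, with 1397 CPM in 18-month nicotine library 1, 5876 CPM in 7-month nicotine library 1 and 1528 CPM in 7-month saline library 3. Its range in the remaining libraries was 2.36 to 405 CPM. The 10 hippocampal neuron markers, present in every library, summed to 3705 to 4936 CPM, and nicotine called 0 of the tested neuron, astrocyte, oligodendrocyte and microglia markers at either age. In bulk tissue, fewer ependymal cells and less RNA per cell cannot be told apart. The 5 genes fixed as ependymal markers (Foxj1, Tmem212, Ccdc153, Rsph1 and Ak7) are themselves members, so the label was not checked against other genes.

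Each of the 10 genes was detected in all 12 libraries, at low counts for most. The lowest count of any member was 6, seen for Tmem212 in 18-month nicotine library 3 and for Spag16 in 18-month nicotine library 2, which has a 95% Poisson interval of 2.20 to 13.1 counts. The order of the levels per kb of transcript was Foxj1 (median 3.55 CPM per kb over the 12 libraries), Rsph1 (2.93), Dnah9 (2.16), Ccdc153 (1.997), Tmem212 (1.49), Ak7 (0.897), Dnah6 (0.342), Spag16 (0.176), Dnah11 (0.165) and Hydin (0.122), each in CPM per kb. Neighbours in this order overlapped widely: Foxj1 ranged from 1.62 to 4.63 CPM per kb and Rsph1 from 1.83 to 6.68 CPM per kb, and the 3 genes at the low end, Spag16, Dnah11 and Hydin, had ranges of 0.0786 to 0.486, 0.0961 to 0.211 and 0.0229 to 0.237 CPM per kb.

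**Figure D1:**
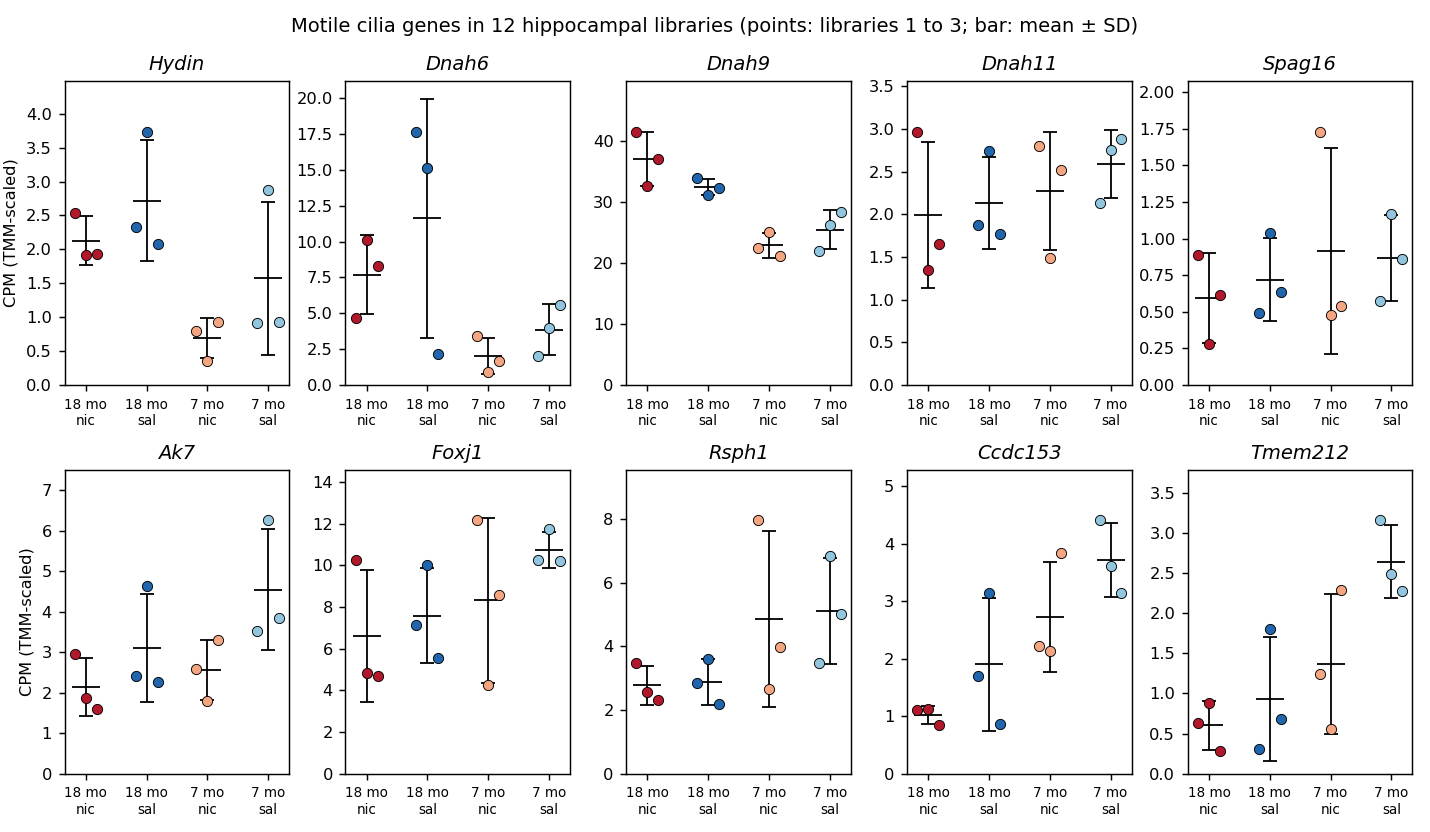
Level of each of the 10 genes in CPM (vertical axes, each from 0) in the 12 libraries, with points for libraries 1 to 3 of each group and bars for the mean ± SD (n = 3 libraries). Dnah9 varied least, between 21.1 and 41.6 CPM, and Dnah6 most, between 0.923 and 17.6 CPM.

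Dnah9 stood apart among the members. It supplied 59.1% to 90.1% of the summed CPM of the 4 long members in each library, and its highest library exceeded its lowest by 1.97-fold, whereas Dnah6 spanned 19.1-fold, Tmem212 11.1-fold and Hydin 10.3-fold. The 3 other dynein and central apparatus genes of similar length, Hydin, Dnah6 and Dnah11, reached at most 3.73, 17.6 and 2.97 CPM. Exons of 4 members overlap an annotated gene on the opposite strand, by 237 nt in Hydin (Gm26832), 167 nt in Dnah6 (Gm20560), 495 nt in Dnah9 (Gm12296) and 642 nt in Dnah11 (Cdca7l). The strand setting of the counting is not given in the sources used here, so reads of a gene and of its antisense partner cannot be told apart. Gm20560 had 1 to 12 counts and Cdca7l 33 to 58 counts per library, and the other two were not analysed here.

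In 18-month mice no member was called as changed under nicotine, and 9 of the 10 had values below 0. edgeR's quasi-likelihood test, adjusted by Benjamini-Hochberg over 18173 genes at 0.05, called 0 of the 10, against 0.044% of all tested genes; DESeq2 also called 0, and 0 had an unadjusted p under 0.05. The median log2 fold change of the members was -0.32, beside -0.0047 over all tested genes, of which 51.9% were below 0. Ccdc153 had the lowest value, with 1.10, 1.12 and 0.851 CPM in nicotine mice and 1.70, 3.15 and 0.861 CPM in saline mice (log2 fold change -0.91, SE 0.43, adjusted p = 0.756 in edgeR). The groups overlapped, since saline library 3 lay beside the nicotine libraries. Dnah9 was the member above 0, with 41.6, 32.6 and 37.1 CPM in nicotine mice and 34.0, 31.2 and 32.3 CPM in saline mice (log2 fold change 0.18, SE 0.09, adjusted p = 0.757 in edgeR). Here 2 of the nicotine libraries stood above all 3 saline libraries and the third lay between them. The share of members below 0 rested in part on 18-month saline library 2. Without that library Tmem212 (0.28), Rsph1 (0.15), Dnah11 (0.13), Spag16 (0.09) and Foxj1 (0.06) also lay above 0. Ak7, Hydin, Dnah6 and Ccdc153 stayed below 0.

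Foxj1 had 10.2, 4.85 and 4.68 CPM in 18-month nicotine mice and 7.15, 10.03 and 5.53 CPM in 18-month saline mice (log2 fold change -0.21, SE 0.32). The 2 highest libraries were 1 from each group, nicotine 1 and saline 2. Dnah6 had 4.66, 10.1 and 8.32 CPM in nicotine mice and 17.6, 15.1 and 2.13 CPM in saline mice (log2 fold change -0.62, SE 0.58). Saline library 3 was below every nicotine library for this inner arm motor, and the other two saline libraries above them. The remaining members lay between -0.64 (Tmem212) and -0.06 (Rsph1), and every one of the 10 had overlapping groups, whereas 11.8% of all tested genes had groups that did not overlap. SEs of the members ran from 0.09 to 0.61 on the log2 scale, and changes of that size could not be told from the spread between libraries.

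In 7-month mice likewise no member was called as changed under nicotine. The same test over 17572 genes called 0 of the 10, against 0.0114% of all tested genes, and DESeq2 called 0. Again 9 of the 10 values were below 0, with a median log2 fold change of -0.42 beside -0.0083 over all tested genes, of which 51.2% were below 0. Ak7, the ciliary adenylate kinase, was the member whose groups did not overlap, with 2.60, 1.81 and 3.29 CPM in nicotine mice and 3.53, 6.25 and 3.85 CPM in saline mice. Its log2 fold change was -0.84 (SE 0.32), with an unadjusted p of 0.0306, the one member under 0.05, and an adjusted p = 0.656 in edgeR; 17.4% of all tested genes had groups that did not overlap.

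Hydin had the lowest log2 fold change at 7 months, -1.18 (SE 0.56, adjusted p = 0.656 in edgeR). Its levels were 0.796, 0.361 and 0.930 CPM in nicotine mice and 0.916, 2.87 and 0.934 CPM in saline mice. Saline library 2 held the high value, and the others lay close together. Without that library the log2 fold change was -0.40 (adjusted p = 0.836 in edgeR). Saline library 2 was also the highest of its group for the short members Foxj1, Ak7, Rsph1 and Spag16. Dnah6, Dnah9 and Dnah11 were highest in saline library 3. The part of the larger share of counts in long transcripts in saline library 2 was not tested. Tmem212 had 1.25, 0.562 and 2.29 CPM in nicotine mice and 3.15, 2.48 and 2.28 CPM in saline mice (log2 fold change -0.96, SE 0.45). The groups met at the third library of each. Dnah6 gave -0.95 (SE 0.51), Ccdc153 -0.46 (SE 0.28), Foxj1 -0.38 (SE 0.34), Dnah11 -0.20 (SE 0.28), Dnah9 -0.17 (SE 0.14) and Rsph1 -0.08 (SE 0.42). Spag16 was the member above 0 at this age (log2 fold change 0.09, SE 0.54), with 1.73 CPM in nicotine library 1 and 0.482 to 1.17 CPM in the other 7-month libraries. Without that library its value was -0.76.

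The nicotine effect did not differ detectably between ages for any member. The interaction of infusion and age, tested over 19171 genes in all 12 libraries, called 0 of the 10, against 0.00522% of all tested genes; DESeq2 called 0 and 0 had an unadjusted p under 0.05. The difference, as the effect at 18 months minus that at 7 months, was widest for Hydin (0.81, SE 0.64, adjusted p = 0.675) and nearest to 0 for Rsph1 (0.02, SE 0.53, adjusted p = 0.994), both in edgeR. For Dnah9 it was 0.35 (SE 0.16, unadjusted p = 0.0573, adjusted p = 0.623 in edgeR).

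**Figure D2:**
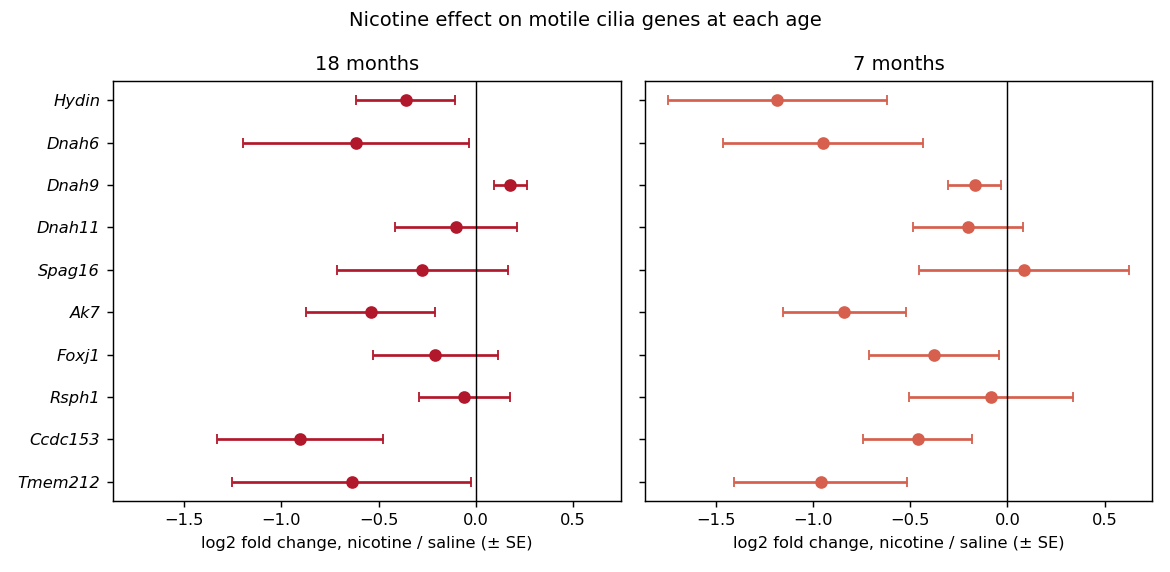
Log2 fold change of nicotine over saline (horizontal axis) with its SE for the 10 genes at 18 months (left panel) and 7 months (right panel), each from 6 libraries. At either age 9 of the 10 points lie below 0, with Dnah9 above it at 18 months and Spag16 at 7 months, and 0 points were called.

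Between ages in nicotine mice, 3 long members were higher at 18 months and 1 short member was lower. Hydin, Dnah6 and Dnah9 rose and Ccdc153 fell. Over all 19171 tested genes 59.3% were called, 29.5% higher and 29.8% lower at 18 months, and 4 of 10 is no higher than that share. By transcript length, 70.6% of all tested genes over 5000 nt were higher at 18 months and 54.9% of those under 2000 nt were lower. The same 4 members had groups that did not overlap, as had 68.9% of all tested genes. Markers of other cells moved between ages too: of 6 astrocyte markers 4 were higher and 1 lower at 18 months in either infusion, and of 6 oligodendrocyte markers all were below 0, with 1 called in nicotine mice and 3 in saline mice. Their part in the members' values was not tested.

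Hydin had 2.54, 1.91 and 1.94 CPM in 18-month nicotine mice and 0.796, 0.361 and 0.930 CPM in 7-month nicotine mice. Each 18-month library stood above each 7-month library (log2 fold change 1.60, SE 0.47, adjusted p = 0.0118 in edgeR). Without the 3 Ttr-rich libraries it was 1.56 and no longer called (adjusted p = 0.0585). Dnah6 had 4.66, 10.1 and 8.32 CPM in 18-month and 3.39, 0.923 and 1.71 CPM in 7-month nicotine mice (log2 fold change 1.92, SE 0.68, adjusted p = 0.0277 in edgeR). These groups did not overlap either, but the call was lost without 7-month nicotine library 2 (log2 fold change 1.58, adjusted p = 0.0934), 7-month nicotine library 3 (1.82, 0.0799), 18-month nicotine library 2 (1.67, 0.0826) or 18-month nicotine library 3 (1.85, 0.0622). Dnah9 had 41.6, 32.6 and 37.1 CPM in 18-month and 22.5, 25.1 and 21.1 CPM in 7-month nicotine mice (log2 fold change 0.69, SE 0.12, adjusted p = 0.000395 in edgeR). All 3 older libraries were above the 3 younger ones, with means of 37.1 ± 4.48 and 22.9 ± 2.005 CPM at 18 and 7 months (SD, n = 3 each).

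The fourth long gene did not follow. Dnah11 had 2.97, 1.35 and 1.65 CPM in 18-month and 2.80, 1.49 and 2.52 CPM in 7-month nicotine mice (log2 fold change -0.19, SE 0.32, adjusted p = 0.639 in edgeR), and the groups overlapped throughout. Ccdc153, the short member that passed, had 1.10, 1.12 and 0.851 CPM in 18-month and 2.21, 2.13 and 3.84 CPM in 7-month nicotine mice (log2 fold change -1.41, SE 0.40, adjusted p = 0.00962 in edgeR). Every 18-month library was below every 7-month library, and the gene was called with the same sign in all 15 alternative fits. The 5 other short members had values below 0 that did not pass, from -1.17 (Tmem212, SE 0.61) to -0.25 (Ak7, SE 0.36). For Tmem212 the levels were 0.636, 0.886 and 0.284 CPM in 18-month and 1.25, 0.562 and 2.29 CPM in 7-month nicotine mice, overlapping at 7-month library 2. Leaving that library out gave a call for Tmem212 (-1.54, adjusted p = 0.0466) and for Rsph1 (-1.10, adjusted p = 0.0209), both in edgeR.

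In saline mice the same comparison called 2 members, Dnah9 higher and Tmem212 lower at 18 months, where 46.1% of all tested genes were called, 21.5% higher and 24.6% lower. Of all tested genes over 5000 nt 48.6% were higher, and of those under 2000 nt 46.6% were lower. All 6 short members were below 0 and 3 of the 4 long ones above 0, as in nicotine mice; the interaction given above is the test of the difference between these comparisons. Dnah9 had 34.0, 31.2 and 32.3 CPM in 18-month and 21.9, 26.2 and 28.3 CPM in 7-month saline mice (log2 fold change 0.35, SE 0.12, adjusted p = 0.0277 in edgeR). The groups did not overlap, yet the call was lost without 7-month saline library 1 (0.25, adjusted p = 0.12), 18-month saline library 1 (0.31, 0.091) or 18-month saline library 3 (0.36, 0.0614). Tmem212 had 0.313, 1.80 and 0.680 CPM in 18-month and 3.15, 2.48 and 2.28 CPM in 7-month saline mice (log2 fold change -1.50, SE 0.57, adjusted p = 0.0467 in edgeR). Again no older library reached a younger one. Its call was near the threshold and was lost without any one of 5 libraries, with adjusted p from 0.0529 to 0.148: 7-month saline library 1, 2 or 3 and 18-month saline library 1 or 3.

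Hydin in saline mice had 2.32, 3.73 and 2.08 CPM at 18 months and 0.916, 2.87 and 0.934 CPM at 7 months (log2 fold change 0.79, SE 0.44, adjusted p = 0.157 in edgeR). The overlap came from 7-month saline library 2, and without it the value was 1.58 and called (adjusted p = 0.00257). For Dnah6 the levels were 17.6, 15.1 and 2.13 CPM in 18-month and 2.04, 4.00 and 5.57 CPM in 7-month saline mice (log2 fold change 1.59, SE 0.64, adjusted p = 0.0608 in edgeR). Its 18-month library 3 lay among the younger libraries; without it the value was 2.09 and called (adjusted p = 0.0086). Ccdc153 had 1.70, 3.15 and 0.861 CPM in 18-month and 4.41, 3.61 and 3.14 CPM in 7-month saline mice (log2 fold change -0.97, SE 0.38, adjusted p = 0.0522 in edgeR). Here 18-month library 2 touched the lowest 7-month library, and without it the value was -1.54 and called (adjusted p = 0.00872). Rsph1 gave -0.82 (SE 0.38), Ak7 -0.55 (SE 0.34), Foxj1 -0.50 (SE 0.37), Dnah11 -0.28 (SE 0.32) and Spag16 -0.26 (SE 0.54), and 0 of these 5 passed. Foxj1 did not overlap between ages all the same, with 7.15, 10.03 and 5.53 CPM in 18-month and 10.2, 11.7 and 10.2 CPM in 7-month saline mice, as for 49.7% of all tested genes.

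**Figure D3:**
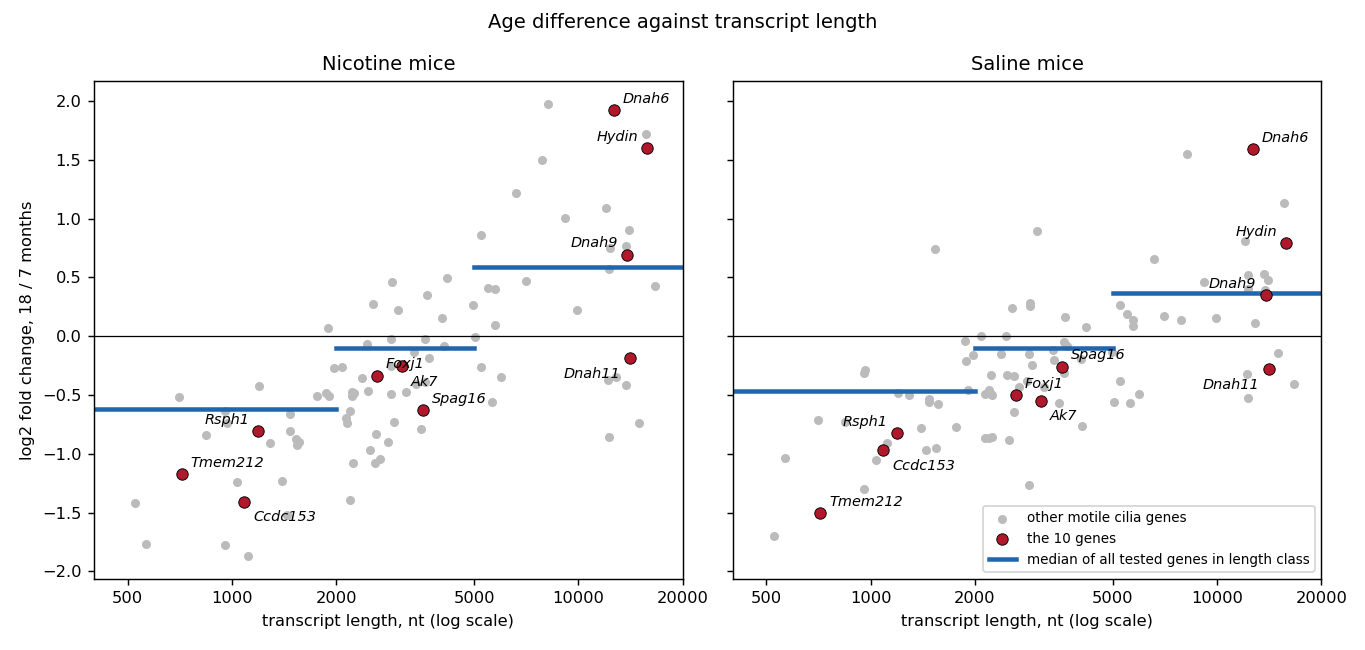
Log2 fold change of 18 over 7 months (vertical axis) against transcript length in nt (horizontal axis, log scale) for the 10 genes (red, named), the other motile cilia genes of the lists (grey) and the median of all tested genes in each of 3 length classes (blue lines), in nicotine mice (left) and saline mice (right). In nicotine mice the long members lie above the short ones; in saline mice Dnah11, at -0.28, lies just below Spag16, at -0.26, and the class medians climb from -0.62 to 0.59 and from -0.46 to 0.37.

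The split of the members by length was shared by the genes around them. The median log2 fold change of 18 over 7 months was 0.59 for all tested genes over 5000 nt, -0.10 for those of 2000 to 5000 nt and -0.62 for those under 2000 nt in nicotine mice. The same classes had medians of 0.37, -0.10 and -0.46 in saline mice. Among the 191 tested genes over 12000 nt, the size of the 4 long members, the median was 1.12 in nicotine mice and 0.79 in saline mice. Hydin and Dnah6 lay above these medians or at them, and Dnah9 and Dnah11 below.

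Within each library the log2 ratio of the summed CPM of the long members to that of the short members gave the same picture. It was 1.42, 1.99 and 2.24 in 18-month nicotine mice, 1.90, 1.12 and 1.66 in 18-month saline mice, 0.08, 1.23 and 0.22 in 7-month nicotine mice and 0.09, 0.16 and 0.57 in 7-month saline mice. The 18-month libraries were above the 7-month ones with 1 exception, 7-month nicotine library 2, where the short members summed to 11.9 CPM and other 7-month libraries had 22.5 to 32.1 CPM. The mean of this ratio was higher by 1.37 at 18 months than at 7 months in nicotine mice and by 1.29 in saline mice. Nicotine minus saline was 0.32 at 18 months and 0.24 at 7 months; without Dnah9, which dominates the long sum, these were 0.04 and -0.25, and the age differences 1.90 and 1.62.

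A second fit gave each library offsets for transcript length and GC content, from a regression of its own log counts on both. With these offsets 0 members were higher at 18 months in either infusion, and 3 were lower in nicotine mice and 2 in saline mice, where 47.7% and 38.8% of all tested genes were called. The offset fit covered only the 16955 tested genes with a known length. It called 2919 higher and 5177 lower in nicotine mice, and 2285 higher and 4293 lower in saline mice. Without offsets, over all 19171 tested genes, the calls were 5659 and 5709 in nicotine mice and 4124 and 4720 in saline mice. Over genes with a length but without offsets, 9970 were called in nicotine mice and 7540 in saline mice, against 8096 and 6578 with offsets. The median over the genes of each fit was -0.10 and -0.09 with offsets, beside -0.03 and -0.03 over all 19171 without.

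Dnah9 turned from higher to lower, with a log2 fold change of -0.46 (SE 0.16, adjusted p = 0.0321) in nicotine mice and -0.54 (SE 0.16, adjusted p = 0.019) in saline mice. Dnah11, the lowest long member in both fits, was called lower with offsets, at -1.42 (SE 0.34, adjusted p = 0.00475) in nicotine mice and -1.19 (SE 0.34, adjusted p = 0.0149) in saline mice, all by edgeR. Hydin lost its call in nicotine mice (0.35, SE 0.38) and was -0.04 (SE 0.35) in saline mice, and Dnah6 stayed above 0 without a call, at 0.76 (SE 0.69) and 0.75 (SE 0.65) in nicotine and saline mice. Ccdc153 kept its direction, at -1.17 (SE 0.40, adjusted p = 0.031) in nicotine mice and -0.84 (SE 0.38, adjusted p = 0.0972) in saline mice. Tmem212 was at -1.03 (SE 0.61) in nicotine mice and -1.44 (SE 0.56, adjusted p = 0.0622) in saline mice. The direction of Dnah9 between ages therefore depends on whether length and GC content are modelled, whereas those of Ccdc153 and Tmem212 do not. With offsets the median of the genes over 12000 nt was -0.08 and -0.05 in nicotine and saline mice.

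**Figure D4:**
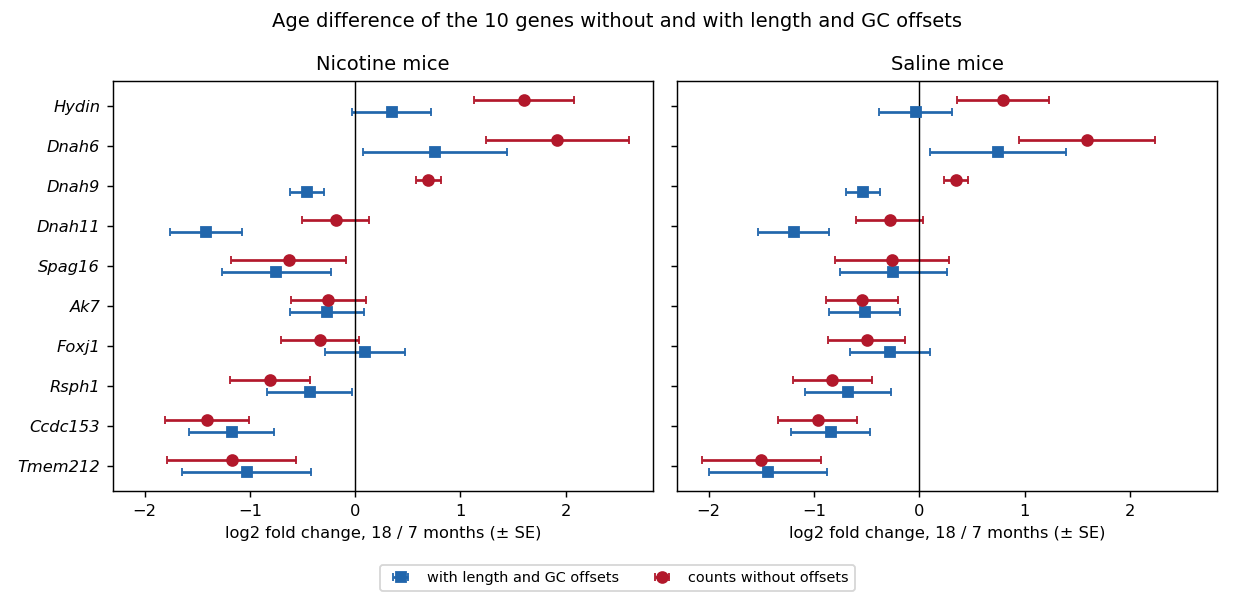
Log2 fold change of 18 over 7 months (horizontal axis) with its SE for the 10 genes, without offsets (red circles) and with per-library offsets for transcript length and GC content (blue squares), in nicotine mice (left) and saline mice (right). The 4 long members at the top move to the left by about the same distance, Dnah9 from 0.69 to -0.46 in nicotine mice, while the short members move less.

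The wider motile cilia lists hold 88 genes in 5 groups: regulators, other dynein heavy chains, dynein arm subunits with their docking and assembly factors, radial spoke and central apparatus proteins, and doublet and other axonemal proteins. Nicotine called 0 of their genes at 18 months and 0 at 7 months. At 18 months 22 of 79 tested genes were above 0 and at 7 months 38 of 85. Among the other dynein heavy chains 11 of 12 were below 0 at 18 months (median -0.31) and 9 of 12 at 7 months (median -0.38), with 2 and 0 at an unadjusted p under 0.05. At 7 months the median of all tested genes over 12000 nt was -0.35, and with the offsets that of the dynein list was -0.05; at 18 months the values were 0.01 and -0.31. Dnah7a, Dnah7b and Dnah7c in this group are near-identical copies, and reads may be split between them.

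Between ages the calls in these lists also differed by length. In nicotine mice 12 of the 26 list genes over 5000 nt rose and 3 fell, and 12 of the 23 under 2000 nt fell and 0 rose. Among all tested genes over 5000 nt in nicotine mice 70.6% rose and 3.72% fell. Of those under 2000 nt, 54.9% fell and 13.7% rose. In saline mice 2 of 26 rose and 2 fell among the long genes and 9 of 23 fell and 0 rose among the short ones. Of all tested genes over 5000 nt in saline mice, 48.6% rose and 3.23% fell. For those under 2000 nt, 46.6% fell and 12% rose. Dnah5, an outer arm heavy chain of 15637 nt, had 9.71 ± 0.678 CPM in 18-month and 2.95 ± 0.256 CPM in 7-month nicotine mice (SD, n = 3 each; log2 fold change 1.72, SE 0.28, adjusted p = 0.000349 in edgeR). Rfx3, an RFX factor of ciliated cells, also rose in nicotine mice (1.01, adjusted p = 0.000643), and both lost their calls with the offsets (0.40, adjusted p = 0.0596, and 0.07, adjusted p = 0.655). Not all long motors moved this way, since Dnah17 (14973 nt) fell in nicotine mice (-0.74, adjusted p = 0.00382).

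Several axonemal genes fell at both infusions and did so with the offsets as well. Fam183b (567 nt) had 1.60 ± 0.0756 CPM in 18-month and 5.45 ± 0.495 CPM in 7-month nicotine mice, and 1.98 ± 0.0663 CPM in 18-month and 4.07 ± 0.651 CPM in 7-month saline mice (SD, n = 3 each). Its log2 fold changes were -1.76 (adjusted p = 2.68e-05) in nicotine mice and -1.04 (adjusted p = 0.000654) in saline mice, and -1.66 and -1.01 with offsets. Dnaic1, an outer arm intermediate chain of 2510 nt, fell by 0.96 and 0.88 in nicotine and saline mice on the log2 scale, and by 0.77 and 0.75 with offsets. Nme5 (843 nt), a radial spoke protein, fell by 0.84 and 0.73, and by 0.68 and 0.61 with offsets; Spef1, of the central apparatus, fell by 0.83 and 0.64, and by 0.58 and 0.48 with offsets. These 4 were called in edgeR with and without the offsets in both infusions. So was the longer Iqcg (5618 nt), which fell by 0.56 and 0.57 in nicotine and saline mice, and by 1.10 and 0.92 with offsets. With offsets 9 of the 26 list genes over 5000 nt were lower in nicotine mice and 10 in saline mice, with 0 higher. Of the 23 under 2000 nt, 8 were lower in nicotine mice and 6 in saline mice, with 0 and 1 higher. With offsets the calls in the 5 lists together were 1 higher and 22 lower in nicotine mice and 1 higher and 18 lower in saline mice, where 17.2% and 30.5% (nicotine) and 13.5% and 25.3% (saline) of all tested genes were higher and lower.

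Genes of the primary cilium and of intraflagellar transport, which most cells carry, were taken as a second list. Nicotine called 0 of 32 at either age, and between ages 8 rose and 12 fell in nicotine mice and 5 rose and 8 fell in saline mice, where 59.3% and 46.1% of all tested genes were called. Ift27, a small GTPase of the transport train, fell by 1.34 and 0.95 on the log2 scale in nicotine and saline mice. Dync2h1, the motor of retrograde transport with a transcript of 14264 nt, rose by 1.01 in nicotine mice and was -0.25 with offsets.

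Most members were high or low together in the same libraries. In 18-month mice, saline library 2 was the highest of its group for 8 of the 10 genes and nicotine library 1 for 7, and saline library 3 was the lowest of its group for 7. In 7-month mice, nicotine library 2 was the lowest of its group for 9 of the 10, all but Dnah9. Foxj1 was 10.2 CPM in 18-month nicotine library 1 and at most 4.85 CPM in the 2 others of the group, and in 7-month nicotine mice it was 12.2, 4.25 and 8.57 CPM.

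Choroid plexus markers moved with this spread for some members. The 16 markers summed to 1583, 36.7 and 34.2 CPM in 18-month nicotine mice, 33.7, 103 and 27.2 CPM in 18-month saline mice, 6291, 63.1 and 456 CPM in 7-month nicotine mice and 148, 286 and 1658 CPM in 7-month saline mice. At most 2 of the 16 had a count of 0 in a library, in 18-month saline library 3. Between nicotine and saline all 10 tested at 18 months and all 16 tested at 7 months were above 0, opposite to the members' values, and 0 were called. Between ages all 16 were below 0 at 18 months, as were the short members, with medians of -0.98 in nicotine mice and -2.34 in saline mice and 0 calls. Taking each library's departure from its group mean, Ttr and Dnah11 went together (r = 0.94, Spearman 0.94, 12 libraries), as did Ttr and Foxj1 (r = 0.90, Spearman 0.91), while Ccdc153 (r = 0.29, Spearman 0.35) and Dnah6 (r = 0.27, Spearman 0.39) followed it less. These are descriptions over libraries that share their group means, and the part of choroid plexus or ventricular tissue in the values above was not tested. Without the 3 Ttr-rich libraries 0 members were called for nicotine at either age. The 6 oligodendrocyte markers summed to 3751, 3103 and 4385 CPM in 18-month nicotine mice and 4205, 5453 and 3071 CPM in 18-month saline mice. At 7 months the sums were 5553, 4036 and 5040 CPM (nicotine) and 5473, 5952 and 6660 CPM (saline). Their order matched that of the members' mean departures in 18-month saline and 7-month nicotine mice only. Under nicotine all 6 were below 0 at either age, with 0 called. Their part in the values was not tested.

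**Figure D5:**
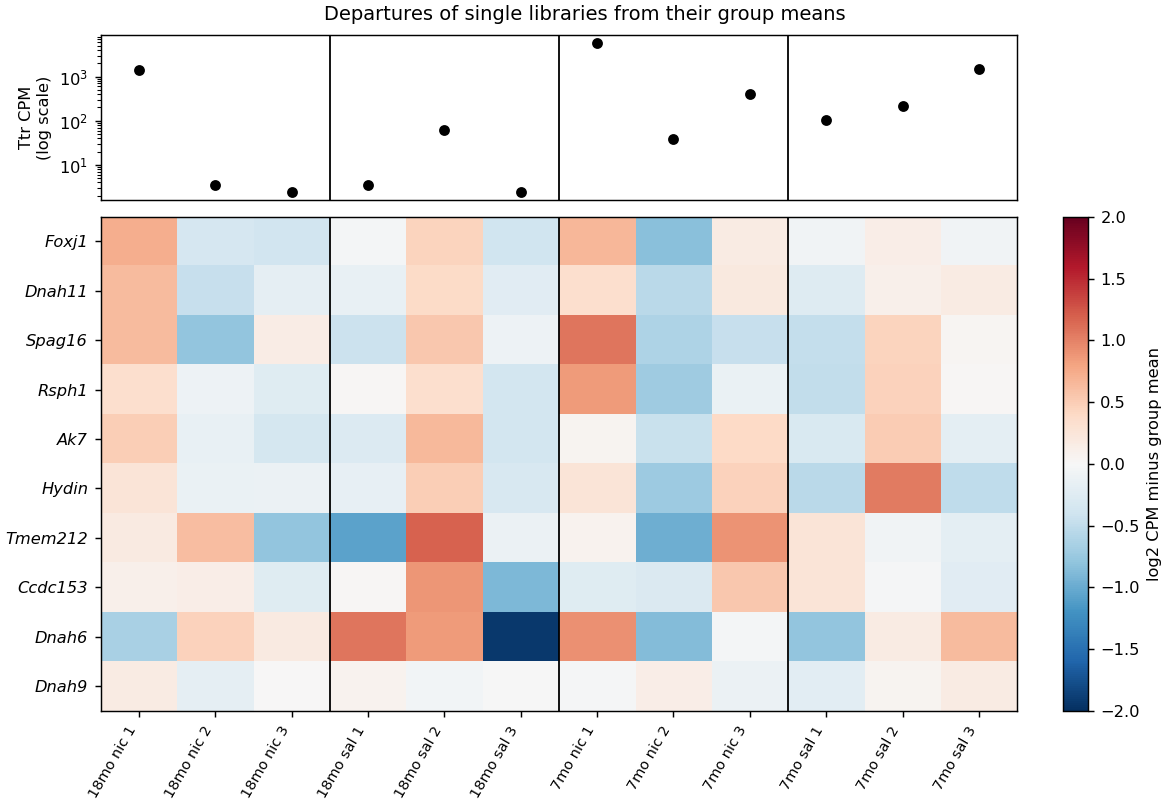
Ttr level in CPM (top, log scale) and departure of each of the 10 genes from its group mean in log2 CPM (bottom, colour), for the 12 libraries in 4 groups of 3. Most members are high together in 18-month saline library 2 and 18-month nicotine library 1 and low together in 7-month nicotine library 2 and 18-month saline library 3, and Dnah9 changes little.

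Members differed in how far they moved together within groups. Departures of Foxj1 and Dnah11 had r = 0.925 over the 12 libraries and those of Ak7 and Hydin r = 0.875, whereas Dnah9 had r between -0.56 (with Tmem212) and 0.34 (with Spag16). The 8 genes outside the members whose departures were most like the members' mean were Gm13031 (r = 0.959), Hjurp (0.954), Pacs2 (0.939), LOC102633307 (0.934), Kazn (0.925), Ndrg1 (0.925), Fgfr2 (0.912) and Prima1 (0.909), each r over 12 libraries. Spearman values for them ran from 0.832 to 0.986, and r was 0.829 to 0.931 without the 2 libraries farthest from the middle, 18-month saline 2 and 7-month nicotine 2. None of the 8 was on a cilium or cell type list. The cell type lists hold 5 to 16 genes each, so absence from them does not say which cells express the 8.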

How the data were processed

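RNA from mouse hippocampus was measured by RNA sequencing in 12 libraries. The authors deposited 1 table for each age, holding whole-number fragment counts of each gene that had not been normalized. Per the submitters' processing notes TopHat was used, with no version given, and the build was GRCm38; the counting tool, annotation and strand setting are not given in the sources used here. The library text in the labels' protocols describes a small RNA kit, while the counts cover long mRNA. The tables have 44786 (18 months) and 44788 (7 months) genes, and 44760 names found in both were joined. Annotation and the transcript lengths, found for 32237 genes, came from GENCODE M21 on GRCm38.

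Tests used edgeR 4.0.16 in R 4.3.3 (TMM, filterByExpr, quasi-likelihood F-test, Benjamini-Hochberg over all genes tested, 0.05). Nicotine was fitted within each age from 6 libraries, and age and the interaction as 4 group means over 12. CPM were scaled by TMM over the 12 libraries, and an SE is the size of the log2 fold change over the root of its F statistic. With 3 libraries against 3, an exact two-sided permutation test reaches 0.1 at best, and the model was used for single genes. Departures used log2 CPM with a prior count of 2. Alternatives were RLE size factors, DESeq2 1.42.0 (Wald test), keeping all genes with a count, a replicate block, leaving out single libraries or both first 7-month libraries, other sets of libraries in the fit, and length and GC offsets (splines with 4 degrees of freedom). Those without the Ttr-rich libraries (over 1000 CPM), without Dnah9, over genes with a length, and the paired promoter motif were added after the data were seen. Replicate numbers were not used as pairs. Column headers of both first 7-month libraries share a prefix that differs from that of the other 7-month libraries. What the prefix stands for is not given in the sources used here. The procedure was tested on simulated data. Figures were made with Python 3.11.15 and matplotlib 3.10.9.

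The members and lists were chosen with earlier results of these data known. All 10 members are named in every comparison. Named from each list were up to 3 genes with the smallest p among those called, of which some are printed here, and the 8 genes most like the members' mean were taken among genes with a mean log2 CPM of at least 1. Counting intervals cover counting error only.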

Additional observations from a re-analysis of the deposited data

How the results depend on the processing

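Nicotine called 0 members in every alternative fit at either age and for the difference between ages. For age in nicotine mice 3 to 5 members were called (4 as reported). Similar counts can hold other genes. With length and GC offsets the called members were Ccdc153, Dnah9 and Dnah11 in nicotine mice, and Dnah9 and Dnah11 in saline mice. All of these were lower at 18 months, and Hydin and Dnah6 lost their calls in nicotine mice. For age in saline mice, where 2 were called, the count was 1 with RLE size factors, 1 with the replicate number as a block (replicate block), 1 over genes with a known length without offsets, 1 without the Ttr-rich libraries, 1 without both first 7-month libraries and 0 from the 6 libraries of the 2 groups alone, but 3 with no filter on low counts and 3 with DESeq2, and 0 to 3 with 1 library left out. The replicate block changed no other count of members. Over all genes DESeq2 called 57 for nicotine at 18 months, 81 at 7 months and 37 for the difference, where edgeR called 8, 2 and 1; the cause was not tested. The long to short ratio under nicotine at 7 months reversed without Dnah9, to -0.245. Single log2 fold changes with 1 library left out crossed 0 as follows, as lowest to highest values. For nicotine at 18 months these were Rsph1 -0.25 to 0.15, Dnah11 -0.52 to 0.13, Spag16 -0.70 to 0.089, Foxj1 -0.68 to 0.060 and Tmem212 -1.05 to 0.28. For nicotine at 7 months these were Spag16 -0.76 to 0.39, Rsph1 -0.64 to 0.21 and Dnah11 -0.38 to 0.027. For the difference of the nicotine effect between ages these were Spag16 -0.79 to 0.48, Foxj1 -0.30 to 0.54, Tmem212 -0.086 to 1.23, Rsph1 -0.27 to 0.57, Dnah6 -0.19 to 0.94, Dnah11 -0.31 to 0.32, Ak7 -0.025 to 0.70 and Ccdc153 -0.82 to 0.13. For age in nicotine mice these were Foxj1 -0.81 to 0.039, Spag16 -1.05 to 0.22 and Dnah11 -0.59 to 0.024. For age in saline mice these were Spag16 -0.62 to 0.039. With length and GC offsets the sign turned for Dnah9 0.098 (nicotine at 7 months), Dnah11 0.11 (nicotine at 7 months), Dnah11 -0.22 (the difference of the nicotine effect between ages), Hydin -0.035 (age in saline mice), Dnah9 -0.54 (age in saline mice), Foxj1 0.096 (age in nicotine mice) and Dnah9 -0.46 (age in nicotine mice). With the replicate block the sign turned for Spag16 -0.073 (nicotine at 7 months). Without the Ttr-rich libraries the sign turned for Spag16 -0.78 (nicotine at 7 months), Dnah11 -0.22 (the difference of the nicotine effect between ages) and Spag16 0.063 (the difference of the nicotine effect between ages). Without both first 7-month libraries the sign turned for Spag16 -0.99 (nicotine at 7 months), Spag16 0.69 (the difference of the nicotine effect between ages), Foxj1 0.051 (age in nicotine mice), Dnah11 0.0027 (age in nicotine mice) and Spag16 0.23 (age in nicotine mice). Of the members' values under all alternatives, 696 kept their direction and side of the threshold, 25 lost the call, 11 gained it and 58 changed sign. Correlations of departures between same-numbered libraries ran from -0.098 to 0.196 over the compared groups. Libraries with different numbers were not compared, so these values cannot decide whether the numbers mark pairs. Low counts limit the values of Tmem212, Spag16 and Hydin most.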
